A study of Mus musculus with 2 samples.

Results

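The 8 genes described here are known targets of the hypoxia-inducible factors (HIFs): Vegfa, Bnip3, Slc2a1, Fam162a, Ddit4, Ndrg1, Egln3 and Pfkp. They were chosen by name from the 18366 genes listed in the data, and all 8 were listed in both libraries. Their transcripts were counted as unique molecular identifiers (UMIs), which stand for single captured mRNA molecules, in single cells of mouse gliomas. The tumours arose in C57BL/6 mice after transfer of PDGFB, a platelet-derived growth factor, into the ventricles of the embryonic telencephalon, and were taken about 40 days after birth. Tumour cells were sorted for GFP, cells of 2 tumours were mixed in each of 2 libraries (pool 1 and pool 2), and 4000 cells of each pool were loaded. Both pools belong to 1 group and there was no control group, so every comparison below is between cells of the same tumours.

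Under enough oxygen, the Egln prolyl hydroxylases mark the HIF alpha subunits (Hif1a and Epas1) for the ubiquitin ligase that contains Vhl, and the subunits are degraded. Under low oxygen they persist, pair with Arnt and switch on genes that bring in blood vessels, move glucose into glycolysis and reduce the load on mitochondria. In gliomas this programme is known from cells that lie far from working vessels. Vegfa is the secreted ligand for receptors on endothelial cells. Slc2a1 is the glucose transporter GLUT1, and Pfkp is a phosphofructokinase of glycolysis. Bnip3 is a receptor for the removal of mitochondria, and Fam162a is a mitochondrial protein tied to hypoxic cell death. Ddit4 restrains the kinase complex mTORC1 and also answers to other stresses and to glucocorticoids. Ndrg1 is also known as a gene of myelinating cells. Egln3 is one of the prolyl hydroxylases and so acts back on HIF.

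HIF binds DNA at the letters ACGTG or GCGTG. The 250 bases before the RefSeq start (build GRCm38.p6) were searched for these letters on both strands, where CACGTG holds ACGTG once on each strand and counts as 2 matches. Of the 8 genes, 7 had a window, with Vegfa having 2 starts, and 7 of these 8 windows held a match; the same letters stood in 38.6% of 32851 windows of all genes. A match of this kind is a description of the sequence, not a binding site. Windows of 3 genes are shown. Fam162a (chr16:36071562-36071811, minus strand, 6 matches) and Bnip3 (chr7:138909507-138909756, minus strand, 5 matches) held the most among the 8 genes and differed strongly between clusters. Pfkp (chr13:6648772-6649021, minus strand, 3 matches) held several and differed less between clusters than these 2 genes. Each runs 5′ to 3′ on the strand of the gene, with the matched letters in capitals.
Fam162a: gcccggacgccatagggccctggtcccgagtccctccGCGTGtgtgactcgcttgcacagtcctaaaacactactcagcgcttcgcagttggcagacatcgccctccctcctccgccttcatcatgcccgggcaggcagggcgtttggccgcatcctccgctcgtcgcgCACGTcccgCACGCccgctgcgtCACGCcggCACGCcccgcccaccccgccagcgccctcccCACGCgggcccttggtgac
Bnip3: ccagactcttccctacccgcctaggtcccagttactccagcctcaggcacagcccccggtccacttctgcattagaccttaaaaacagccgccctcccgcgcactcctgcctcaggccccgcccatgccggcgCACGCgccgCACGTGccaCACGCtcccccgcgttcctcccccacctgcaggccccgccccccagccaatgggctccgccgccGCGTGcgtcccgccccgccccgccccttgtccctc
Pfkp: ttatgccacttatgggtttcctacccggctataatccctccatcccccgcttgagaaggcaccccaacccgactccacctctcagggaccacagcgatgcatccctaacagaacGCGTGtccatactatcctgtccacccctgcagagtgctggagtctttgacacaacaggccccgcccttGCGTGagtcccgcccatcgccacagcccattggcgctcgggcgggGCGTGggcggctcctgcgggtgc
Slc2a1 and Ddit4 had 2 matches each and Egln3 had 1, while of the 2 starts of Vegfa, 1 had 2 matches and the other had 0. Windows with 3 or more matches made up 6.58% of all windows. Vegfa and Slc2a1, with at most 2 matches in a window, also differed between clusters, and a relation of matches to levels was not tested.

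The data came as raw UMI counts, and barcodes with under 500 genes or over 15% of mitochondrial UMIs were dropped, which left 3506 cells in pool 1 and 3278 in pool 2. The kept cells held a median of 7440 UMIs in pool 1 and 11272 in pool 2, with median mitochondrial shares of 2.97% and 1.44%. Only 4 barcodes were shared by both pools. Clusters were formed without the 8 genes and numbered 0 to 13 by falling size. By the mean of the pools, clusters 6, 8 and 9 were led by cell cycle genes (Cdc20 and Ccnb1, Ung and Cdc6, and histone genes). Cluster 4 was led by interferon-induced genes such as Ifit3 with Vgf and S100a10, and cluster 7 by Efcc1, Vgf and Hmga2. The pools differed in some of these, with Ifit3 at 20.1 and 124.8 CPM in cluster 4 and Efcc1 at 39.97 and 0.254 CPM in cluster 7. Cluster 0 was shallow, with medians of 3150.5 and 2614.5 UMIs and 106955 and 110008 CPM of the nuclear RNA Malat1, and cluster 3 was the shallowest of the tumour clusters, with medians of 1829.5 and 1639.5 UMIs. Cluster 10 was like committed oligodendrocyte precursors, with 62 and 35 cells. Clusters 11, 12 and 13 were like microglia (14 and 16 cells), oligodendrocytes (4 and 20 cells) and astrocytes (7 and 7 cells), and were among the cells sorted for GFP.

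Over all kept cells, Vegfa, Fam162a and Pfkp were at like levels in the 2 pools and the other 5 genes were higher in pool 2. In CPM (UMIs of the gene scaled to a fixed total of UMIs) of pool 1 and pool 2, Vegfa was at 45.8 and 45.2, Fam162a at 113.9 and 109.6, and Pfkp at 50.2 and 46.2. Bnip3 was at 18.8 and 30.7 CPM, Slc2a1 at 6.31 and 11.6, and Ddit4 at 49.96 and 67.5. Egln3 was at 3.32 and 4.77 CPM and Ndrg1 at 2.15 and 6.15 CPM. For Slc2a1 the counting intervals were 5.49 to 7.22 and 10.6 to 12.7 CPM. Such intervals cover counting error only, and how many of all genes differ as much between the pools was not counted. As means over pools, Vegfa had 45.5 ± 0.47 CPM, Bnip3 24.7 ± 8.41, Slc2a1 8.96 ± 3.75, Fam162a 111.8 ± 3.04, Ddit4 58.7 ± 12.4, Ndrg1 4.15 ± 2.83, Egln3 4.04 ± 1.02 and Pfkp 48.2 ± 2.84 (SD, n = 2). A difference between the 2 pools cannot be told apart from a difference between their tumours or libraries. Counts at the 3′ end are not scaled by transcript length, so levels are compared here between cells for 1 gene and not between genes.

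The genes differed in how their UMIs were spread over cells. Vegfa was found in 18.7% and 17.4% of cells of pool 1 and pool 2, and the 5% of cells with the most Vegfa UMIs held 63.6% and 72.9% of them, with up to 24 and 59 UMIs in a cell. Pfkp was found in 32.4% and 36.1% of cells, the top 5% held 31.0% and 31.8%, and no cell held more than 7 and 13 UMIs. The totals of these 2 genes were close (1532 and 1828 Vegfa UMIs, 1677 and 1868 Pfkp UMIs), so at a like total Vegfa was packed into fewer cells. Ddit4 was spread much as Pfkp was, with 34.8% and 38.9% of its UMIs in the top 5% of cells, and so was Fam162a with 33.0% and 34.4%. Bnip3 had 63.1% and 62.2% there at a lower total. Ndrg1 was found in 0.285% and 0.824% of cells, 10 and 27 cells, yet a single cell held up to 23 and 29 UMIs. After each cell was thinned to 2000 UMIs, which left out 389 and 404 shallower cells, the share with a UMI was 8.41% and 6.02% for Vegfa, 3.11% and 4.56% for Bnip3, 15.5% and 16.6% for Fam162a and 9.88% and 8.803% for Pfkp.

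Levels also differed with depth. Cells of pool 1 were ranked by depth and cut into 3 groups of like size. In the shallowest group (median 2551 UMIs) Vegfa was at 104.2 CPM, against 38.2 CPM in the deepest (median 16026 UMIs), and Fam162a was at 37.1 against 133.6 CPM. In pool 2, split in the same way, Fam162a again differed, at 44.3 against 121.2 CPM, while Vegfa was at 54.998 against 49.9 CPM, with overlapping counting intervals. Cluster 3, the shallowest of the tumour clusters, had Fam162a at 123.5 and 106.9 CPM and Vegfa at 44.6 and 31.8 CPM. The less shallow cluster 0 had Fam162a at 29.9 and 35.2 CPM and Vegfa at 100.4 and 48.1 CPM. The part of depth in the levels by cluster was not tested.

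Across the 11 clusters that had 20 or more cells in both pools, the 8 genes did not share 1 pattern. In a test of any difference among clusters on counts not used for clustering, 7 of the 8 genes passed the filter on low counts and 6 were called (edgeR quasi-likelihood test, Benjamini-Hochberg adjusted p below 0.05), in a fit in which 70.1% of the 11737 genes tested were called. Egln3 was not called (adjusted p = 0.104) and Ndrg1 did not pass the filter. The share of all genes called leaves this count close to the background, and the pattern of each gene is what the following values give. These p-values rest on sums per cluster and pool, so they measure how far clusters differed beyond the disagreement of 2 pools.

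Cluster 4 had the most increases. Bnip3 was at 39.2 and 111.6 CPM there in pool 1 and pool 2, against medians over the 11 clusters of 16.8 and 22.2 CPM. Fam162a was at 176.9 and 244.1 CPM, the highest of the 11 clusters in each pool, against medians of 107.1 and 103.4 CPM. Against the mean of the other 10 clusters, Bnip3 rose by 2.41 ± 0.19 on the log2 scale (± SE), Fam162a by 1.27 ± 0.13, Slc2a1 by 1.27 ± 0.28, Vegfa by 1.25 ± 0.26 and Ddit4 by 0.86 ± 0.12 (edgeR adjusted p of 0.00133 or less for each), which makes 5 of 7 genes tested where 26% of all genes were called in either direction. Bnip3 rose by 1.75 in pool 1 and 2.87 in pool 2 alone, and Vegfa and Slc2a1 rested on pool 2. In cluster 4 Vegfa was at 35.1 CPM in pool 1 and 128.9 CPM in pool 2, and the change was 0.02 in pool 1 alone and 2.03 in pool 2 alone; Slc2a1 was at 8.01 and 35.7 CPM, with changes of 0.47 and 1.80. Pfkp was at 44.6 and 54.4 CPM in cluster 4, near its medians of 46.3 and 46.2 CPM. Cluster 4 was found again only in part under other clusterings. Its overlap with the best match (cells in both over cells in either) was 0.16 at Leiden resolution 0.4 and 0.52 at resolution 1.2. It was 0.29 with another random split and 0.33 with all deposited barcodes. Of these, only resolution 1.2 was close enough for the calls to be compared.

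Cluster 7 was high for a different subset. Vegfa was at 138.7 and 83.7 CPM there and rose by 1.40 ± 0.27 on the log2 scale against the other clusters, and Slc2a1, at 10.3 and 25.1 CPM, rose by 1.18 ± 0.31 (edgeR adjusted p = 0.00072 and 0.0097; 2 of 7 genes, where 15.6% of all genes were called). Fam162a was at 77.5 and 115.4 CPM in cluster 7 and was not called. In pool 1, cluster 7 and cluster 0 held the highest Vegfa among the 11 clusters, and in pool 2 cluster 4 and cluster 7 did. The overlap of cluster 7 with its best match was 0.17 at Leiden resolution 0.4 and 0.31 at resolution 1.2. It was 0.16 with another random split and 0.14 with all deposited barcodes. Its calls were therefore not compared under those clusterings.

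Cluster 0 separated the genes from each other. Fam162a was at 29.9 and 35.2 CPM and fell by 2.07 on the log2 scale (SE 0.21), and Bnip3, at 7.46 and 8.798 CPM, fell by 1.72 (SE 0.41). Vegfa, at 100.4 and 48.1 CPM, rose by 0.74 ± 0.30, and Pfkp, at 60.7 and 69.8 CPM, rose by 0.41 ± 0.15 (edgeR adjusted p of 0.03615 or less for the 4 genes; 54.6% of all genes were called in that cluster). The calls of Vegfa and Pfkp were lost with DESeq2 (adjusted p = 0.119 and 0.0733) and with cells of at least 1000 genes and at most 10% of mitochondrial UMIs (edgeR adjusted p = 0.215 and 0.418). Cluster 0 is also the one with the high Malat1 share and high mitochondrial shares (medians 5.03% and 4.35%), and the part these have in the difference was not tested.

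In the clusters led by cell cycle genes, the called changes were all decreases. In cluster 6, Bnip3, Vegfa and Pfkp fell by 1.14 (SE 0.34), 1.07 (SE 0.37) and 0.47 (SE 0.16) on the log2 scale, 3 of 7 genes where 17.9% of all genes were called. Vegfa was at 20.3 and 18.8 CPM in that cluster. In cluster 9, Bnip3 fell by 1.49 (SE 0.42; -0.83 in pool 1 and -2.07 in pool 2 alone) and Ddit4 by 0.88 (SE 0.18), 2 of 7 genes against 20.4% of all genes. In cluster 8, Ddit4 alone was called and fell by 1.001 (SE 0.17), against 9.18% of all genes. Ddit4 stood at 28.9 and 32.2 CPM in cluster 8 and at 27.9 and 30.7 CPM in cluster 9, the lowest levels of the 11 clusters in each pool. The edgeR adjusted p was 0.041 or less for each of these changes. Elsewhere, Ddit4 rose by 0.73 ± 0.17 in the shallow cluster 3 (1 of 7 genes, against 1.71% of all genes) and Slc2a1 by 1.57 ± 0.51 in cluster 10 (1 of 7 genes, against 22.1% of all genes). Without the pool block, the calls of Vegfa in cluster 0, of Vegfa, Bnip3 and Pfkp in cluster 6, of Bnip3 in cluster 9, of Ddit4 in cluster 3 and of Slc2a1 in cluster 10 were lost (edgeR adjusted p of 0.067 to 0.235). When all 14 clusters were put in order of level, 10 of 13 neighbouring clusters overlapped in their pool values for Bnip3 and Pfkp, 12 of 13 for Egln3, and 11 of 13 for the other 5 genes.

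Ndrg1 was a gene of a single small cluster. The oligodendrocyte-like cluster 12 held 63 of its 72 UMIs in pool 1 and 235 of its 249 in pool 2, from 4 and 20 cells, which is 87.5% and 94.4%. Its level there was 681.6 and 847.2 CPM, with counting intervals of 523.7 to 872.0 and 742.3 to 962.7 CPM, and 4 of 4 and 19 of 20 cells had a UMI. Outside it the highest mean was in cluster 10, with 4 UMIs in 1 cell of pool 1 and 0 in pool 2, and cluster 4 held 1 UMI in pool 1 and 8 UMIs, from 3 cells, in pool 2. In tumour clusters 6, 8 and 9 no Ndrg1 UMI was found. Bnip3 was also high in the oligodendrocyte-like cells, at 119.0 and 133.4 CPM, as was Slc2a1, at 43.3 and 54.1 CPM; Ddit4 was at 32.5 CPM in pool 1 and 504.7 CPM in pool 2. Fam162a was at 32.5 and 46.9 CPM in the same cells, from 3 and 13 UMIs, with counting intervals (6.69 to 94.9 and 25.0 to 80.1 CPM) below its levels in all kept cells. Vegfa was at 10.8 and 32.4 CPM from 1 and 9 UMIs, with intervals of 0.274 to 60.3 and 14.8 to 61.6 CPM that include its levels in all kept cells. The cluster was too small for a test, and no cell type here is known to lack the 8 genes, so the level that free RNA alone would give was not measured. Cluster 12 had medians of 15573.5 and 13029.5 UMIs, against 14460 and 18916.5 UMIs in cluster 8, where no Ndrg1 UMI was found.

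The astrocyte-like cells had the highest measured Vegfa level, at 301.5 CPM in pool 1 and 195.6 CPM in pool 2 from 14 and 10 UMIs, with counting intervals of 164.8 to 505.8 and 93.8 to 359.7 CPM. In pool 2 that interval holds the level of cluster 4. Pfkp was at 193.8 and 97.8 CPM there from 9 and 5 UMIs, with intervals of 88.6 to 367.9 and 31.8 to 228.2 CPM, which overlap those of cluster 7 in pool 1 (65.2 to 92.8 CPM) and cluster 0 in pool 2 (57.8 to 83.5 CPM). The microglia-like cells had no Vegfa UMI in either pool, which allows a level of up to 57.5 and 20.5 CPM (3 counts), a limit for counting error only. These clusters had 7 and 7 and 14 and 16 cells.

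**Figure D1:**
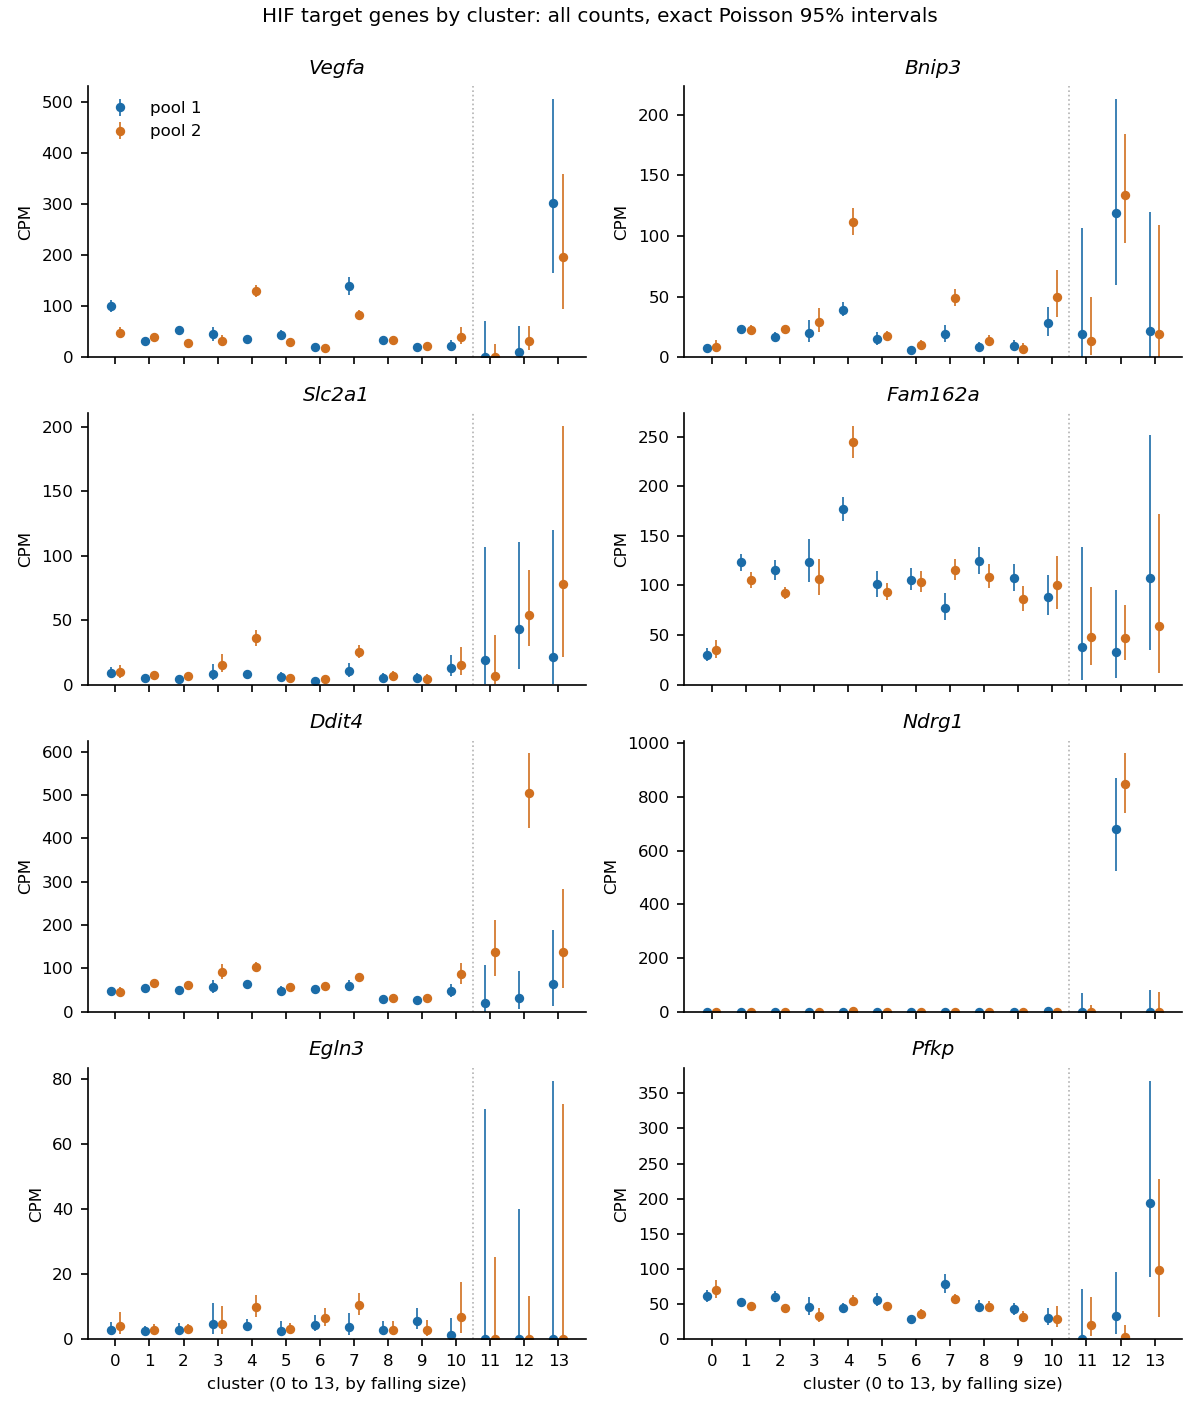
Level of each HIF target gene (CPM, all counts) in each of the 14 clusters (x axis, numbered by falling size), in pool 1 and pool 2, with exact Poisson 95% intervals; clusters right of the dotted line had too few cells for a test. Ndrg1 stands at 681.6 and 847.2 CPM in cluster 12 and near 0 elsewhere, while Bnip3 and Fam162a peak in cluster 4 among the clusters tested.

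The next question was whether a cell with 1 of these genes also had more of the others, beyond what its cluster sets. The counts of each cell were divided at random into training and held-out counts. Cells were sorted by whether they had a training UMI of a given gene, after thinning to 2000 training UMIs, and the other genes were read in the held-out counts within each pool and cluster. Bnip3, Vegfa and Fam162a each rose in cells sorted by each of the other 2. Over 6 sorting genes, 23 ordered pairs could be tested and 14 were called, all of them increases. Between 0.0662% and 1.12% of all genes tested were called higher in these fits. A pair of genes tested in both directions is counted for each direction, so the 14 are not separate relations.

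Vegfa marked cells with more Bnip3. In pool 1, Bnip3 was at 54.1 CPM in 146 cells with a Vegfa UMI, against 18.0 CPM in 2219 cells without. In pool 2 it was at 160.9 CPM in 144 cells with, against 23.4 CPM in 2298 cells without. Within the 7 clusters in the fit, with 110 and 132 of the cells with a Vegfa UMI, Bnip3 rose by 2.02 ± 0.19 on the log2 scale, a 4.05-fold change (edgeR adjusted p = 9.4e-13), and by 1.86 and 2.38 in pool 1 and pool 2 alone. Fam162a was at 159.8 CPM with, against 117.6 CPM without, in pool 1, and at 254.7 against 104.9 CPM in pool 2, and rose by 0.87 ± 0.14. Ddit4 rose by 0.70 ± 0.16 (edgeR adjusted p = 0.0071), with 0.28 in pool 1 and 0.95 in pool 2. Pfkp changed by 0.47 ± 0.17 and was not called (edgeR adjusted p = 0.193). That made 3 of 4 genes called higher, where 1.12% of all 6889 genes tested were. Depth and mitochondrial share were alike in the cells compared, with medians of 11709 and 14424.5 UMIs in cells with a Vegfa UMI and 11842 and 13951 UMIs in cells without.

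Cells sorted by Bnip3, a gene of mitochondrial removal, showed the same relation from the other side. Vegfa was at 114.2 CPM in 76 cells with a Bnip3 UMI, against 39.9 CPM in 2289 cells without, in pool 1, and at 252.3 CPM in 127 cells with, against 31.5 CPM in 2315 cells without, in pool 2. It rose by 2.27 ± 0.20 on the log2 scale, or 4.82-fold, with 1.84 in pool 1 and 2.92 in pool 2 alone. Fam162a was at 263.4 against 114.6 CPM and at 259.5 against 105.4 CPM and rose by 1.14 ± 0.13, nearly alike in both pools (1.23 and 1.34). Ddit4 rose by 0.68 ± 0.18 (edgeR adjusted p = 0.046), with 0.17 in pool 1 and 0.997 in pool 2. Pfkp changed by 0.28 ± 0.23 (edgeR adjusted p = 0.933). Here 3 of 4 genes were called higher, against 0.5% of 8798 genes. The fit took 3 clusters with enough cells of both kinds, which held 52 and 80 of the cells with a Bnip3 UMI. Cells with a Bnip3 UMI were the deeper ones, with medians of 14423.5 and 13946.5 UMIs, against 11513 and 13035 UMIs in cells without, and the part of depth in the result was not tested.

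Cells sorted by the glucose transporter Slc2a1 were few, 34 and 53, and 2 clusters with 14 and 23 of them entered the fit. The levels here and for the other sorting genes are over all sorted cells, while the changes are over the clusters in the fit. Bnip3 was at 83.0 CPM with, against 18.9 CPM without, in pool 1, and at 262.7 against 26.7 CPM in pool 2, and rose by 2.62 ± 0.31. Fam162a was at 261.5 against 117.6 CPM and at 403.4 against 107.7 CPM and rose by 1.59 ± 0.21. Vegfa rose by 1.45 ± 0.34 (edgeR adjusted p = 0.0134). Ddit4 went in opposite directions, at 33.2 CPM with against 51.3 CPM without in pool 1 and at 206.4 against 68.5 CPM in pool 2, and was not called (0.89 ± 0.33, edgeR adjusted p = 0.512). Of 5 genes, 3 were called higher, against 0.228% of 8759 genes.

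Fam162a was common enough that 443 and 427 cells had a training UMI, in all 11 clusters. Bnip3 was at 39.3 CPM with, against 14.9 CPM without, in pool 1, and at 73.3 against 22.02 CPM in pool 2, and rose by 1.24 ± 0.16. Vegfa was at 55.5 against 39.1 CPM and at 91.3 against 32.8 CPM and rose by 0.89 ± 0.12. Ddit4 changed by 0.26 ± 0.09 (edgeR adjusted p = 0.201) and Pfkp by 0.03 ± 0.11 (edgeR adjusted p = 0.969), so 2 of 4 genes were called higher, against 0.543% of 6999 genes.

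Sorting by Ddit4 or Pfkp gave smaller changes. In cells with a Ddit4 UMI (209 and 272) only Vegfa was called, at 58.9 CPM with against 40.9 CPM without in pool 1 and at 79.9 against 39.2 CPM in pool 2, a rise of 0.62 ± 0.14 (edgeR adjusted p = 0.0452; 1 of 3 genes, against 0.0662% of 6045 genes). Fam162a changed by 0.06 ± 0.09 in those cells. In cells with a Pfkp UMI (242 and 230) Vegfa was at 72.3 against 38.9 CPM and at 79.4 against 40.5 CPM and rose by 0.79 ± 0.14, and Fam162a rose by 0.36 ± 0.08 (edgeR adjusted p = 0.0238; 2 of 3 genes, against 0.0676% of 5916 genes). The call of Fam162a there was lost under 7 of 11 alternatives, and that of Vegfa under 3 of the 10 in which it was tested, DESeq2 and another random split among them for both. Pfkp itself was not called in the held-out counts of cells sorted by Pfkp (0.32 ± 0.12, edgeR adjusted p = 0.818), whereas Vegfa in cells sorted by Vegfa was at 334.4 against 26.1 CPM and at 414.7 against 19.7 CPM. A UMI of Pfkp therefore marked cells of little higher Pfkp level, and a UMI of Vegfa marked cells of much higher Vegfa level.

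**Figure D2:**
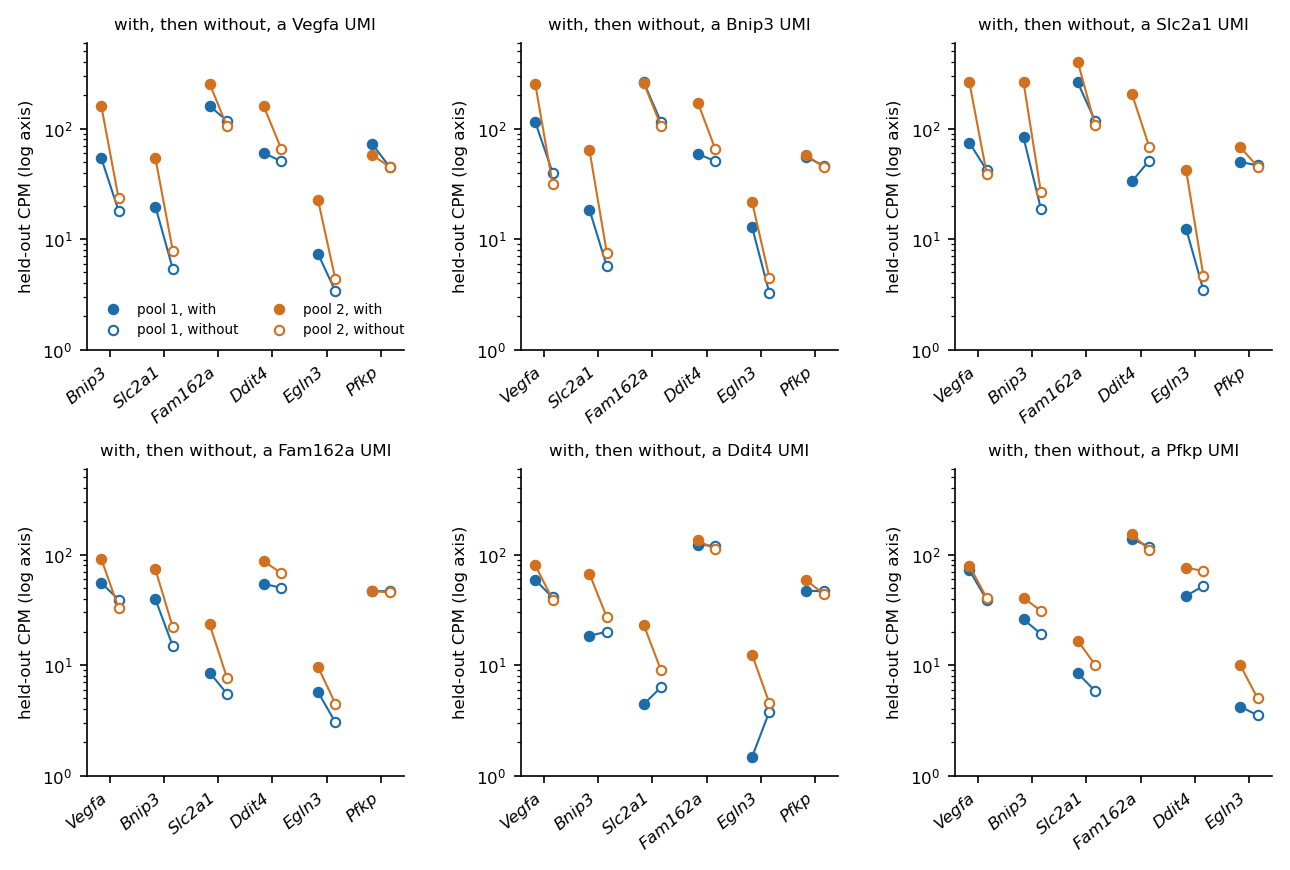
Held-out level (CPM, log axis) of the HIF target genes in cells with a training UMI of the gene named above each panel (filled) and in cells without one (open), per pool; Ndrg1 is left out. In cells with a Vegfa UMI, Bnip3 is at 54.1 and 160.9 CPM, against 18.0 and 23.4 CPM in cells without, while Pfkp lies close in both kinds of cell in most panels.

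**Figure D3:**
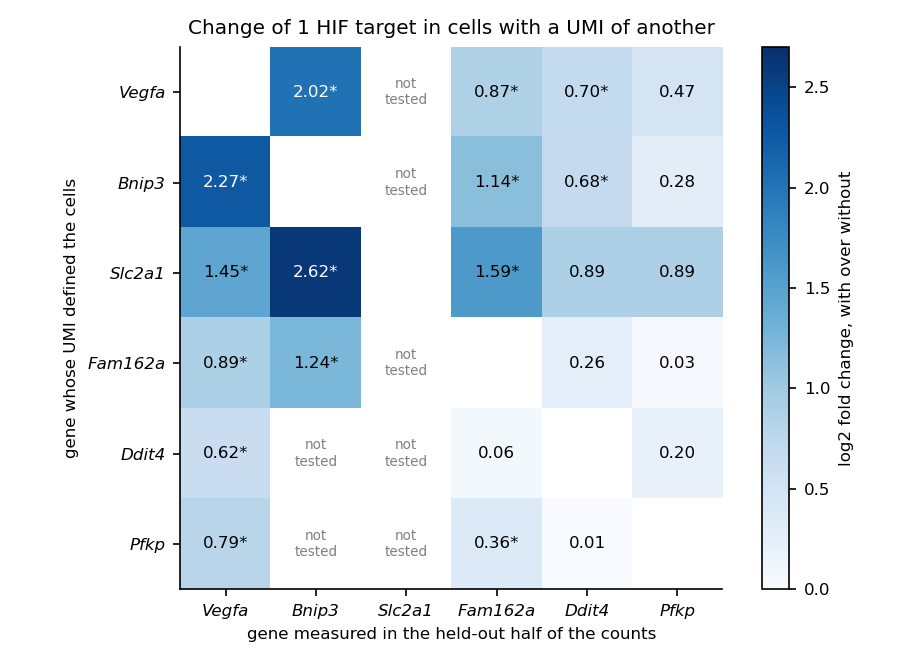
Log2 fold change of each gene (columns, held-out counts) in cells with over cells without a training UMI of another gene (rows), within pool and cluster; a star marks an edgeR adjusted p below 0.05. The values over 1 are all among Vegfa, Bnip3, Slc2a1 and Fam162a.

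Slc2a1, Egln3 and Ndrg1 were too low to pass the filter as measured genes in these pairs, and cells with an Egln3 or an Ndrg1 UMI were too few to be compared within clusters. In cells with a Vegfa UMI, Slc2a1 was at 19.7 CPM against 5.38 CPM without in pool 1 and at 53.6 against 7.88 CPM in pool 2, and Egln3 at 7.38 against 3.38 CPM and at 22.6 against 4.35 CPM. In a fit with no filter, Slc2a1 rose by 2.03 ± 0.28 and Egln3 by 1.59 ± 0.38 in those cells, by 2.27 ± 0.40 and 2.14 ± 0.54 in cells with a Bnip3 UMI, and Slc2a1 by 1.10 ± 0.21 in cells with a Fam162a UMI (edgeR adjusted p of 0.02503 or less for each; 0.618% of all genes were called higher in cells with a Vegfa UMI, 0.235% with a Bnip3 UMI and 0.188% with a Fam162a UMI). Egln3 was not called in cells with a Fam162a UMI (edgeR adjusted p = 0.227), and neither gene was called in cells with a Ddit4 or a Pfkp UMI. In cells with a Ddit4 UMI the pools went opposite ways, with Slc2a1 at 4.42 against 6.30 CPM and Egln3 at 1.47 against 3.80 CPM in pool 1, and Slc2a1 at 23.2 against 8.99 CPM and Egln3 at 12.5 against 4.52 CPM in pool 2. With the pool alone as the block and all clusters together, which leaves 1 residual degree of freedom, cells with an Egln3 UMI (14 and 19) had more Bnip3, by 2.01 ± 0.37 on the log2 scale (edgeR adjusted p = 0.00013). In the same kind of fit the 4 and 16 cells with an Ndrg1 UMI had more Bnip3 (2.92 ± 0.54), Slc2a1 (3.03 ± 0.96) and Ddit4 (2.26 ± 0.42), genes that were also high in the oligodendrocyte-like cluster, which held most Ndrg1 UMIs. The share of all genes called higher in these fits was 0.0786% with Egln3 and 4.38% with Ndrg1.

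Within clusters, sums of different clusters of 1 pool share their tumours and are not independent samples, so these p-values measure the spread over clusters and pools and only 2 pools stand behind them. With the pool alone as the block all 14 pairs were called again. The genes called higher there ran from 31 of 12935 (sorted by Pfkp) to 294 of 13044 (sorted by Fam162a). A fit of this kind takes all clusters together and leaves 1 residual degree of freedom, so it cannot tell what lies beyond the cluster. DESeq2 on the same sums called 4 of the 14, Bnip3 in cells sorted by Vegfa, Slc2a1 and Fam162a and Fam162a in cells sorted by Bnip3. With no filter on low counts, the calls of Ddit4 in cells sorted by Bnip3 and of Vegfa in cells sorted by Slc2a1 were lost (edgeR adjusted p = 0.101 and 0.0581), and with that stricter cell filter that of Vegfa in cells sorted by Ddit4. After thinning to 1000 training UMIs, 5 of the 14 were kept. Bnip3 in cells sorted by Vegfa, Slc2a1 and Fam162a was among those not called or no longer tested. At Leiden resolution 1.2, 10 of the 14 were kept, without Bnip3 in cells sorted by Slc2a1 and Fam162a. Fewer pairs passed the filter in these settings, 21 and 20 against 23.

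Cells with UMIs of at least 2 of the 8 genes were then compared with cells with 0 of the 8. They numbered 186 and 238, against 1415 and 1471 with 0. Glycolysis genes rose together: of 15 genes of that list 12 were tested and 9 were called higher, 0 lower, where 0.64% of 5467 genes were called higher and 0.11% lower. Under every alternative listed for it, between 7 and 12 glycolysis genes were called higher. The median change of the 12 was 0.59 on the log2 scale, against -0.01 over all genes tested. Tpi1, triose phosphate isomerase, was at 287.1 CPM in cells with 2 or more, against 116.6 CPM in cells with 0, in pool 1 (346.3 against 112.7 CPM in pool 2), and rose by 1.24 ± 0.10. Gpi1, glucose phosphate isomerase, rose by 1.32 ± 0.13, with 0.81 in pool 1 and 2.07 in pool 2 alone. Its level was 205.5 CPM in cells with 2 or more, against 110.4 CPM in cells with 0, in pool 1 and 529.6 against 119.9 CPM in pool 2. Aldoa, an aldolase, rose by 0.83 ± 0.09 and Ldha, which makes lactate, by 0.84 ± 0.09. Hk1, Pfkm and Aldoc changed by 0.22 ± 0.14, 0.21 ± 0.14 and -0.04 ± 0.09 and were not called.

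Of 25 other HIF targets, 5 were tested and 3 were called higher. P4ha1, a collagen prolyl hydroxylase, was at 121.5 against 70.7 CPM in pool 1 (104.9 against 54.1 CPM in pool 2) and rose by 0.91 ± 0.13. Higd1a, a mitochondrial protein, rose by 0.46 ± 0.10 and the cytokine Mif by 0.41 ± 0.08. Mxi1 changed by 0.33 ± 0.15 and was not called (edgeR adjusted p = 0.580).

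Of the HIF machinery, 12 of 15 genes were tested and 1 was called. Egln1, the main oxygen-sensing hydroxylase and itself a known HIF target, rose by 0.39 ± 0.09 (edgeR adjusted p = 0.0144). Hif1a changed by -0.10 ± 0.10, Epas1 by -0.08 ± 0.10, Vhl by 0.24 ± 0.16 and Rbx1, a subunit of the ligase, by -0.17 ± 0.07, none of them called. Their mRNA levels over all kept cells were 119.1 and 115.3 CPM for Hif1a and 127.9 and 165.5 CPM for Epas1 in pool 1 and pool 2. Among relatives of the 8 genes, 9 of 15 were tested and 2 were called, Egln1 and the glucose transporter Slc2a3 (0.70 ± 0.17, edgeR adjusted p = 0.0140); Bnip3l, the close relative of Bnip3, changed by 0.34 ± 0.10 and was not called (edgeR adjusted p = 0.116). Kdr, the main receptor for Vegfa, was at 1.32 and 0.865 CPM and Flt1 at 0.359 and 1.63 CPM, and neither was tested.

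**Figure D4:**
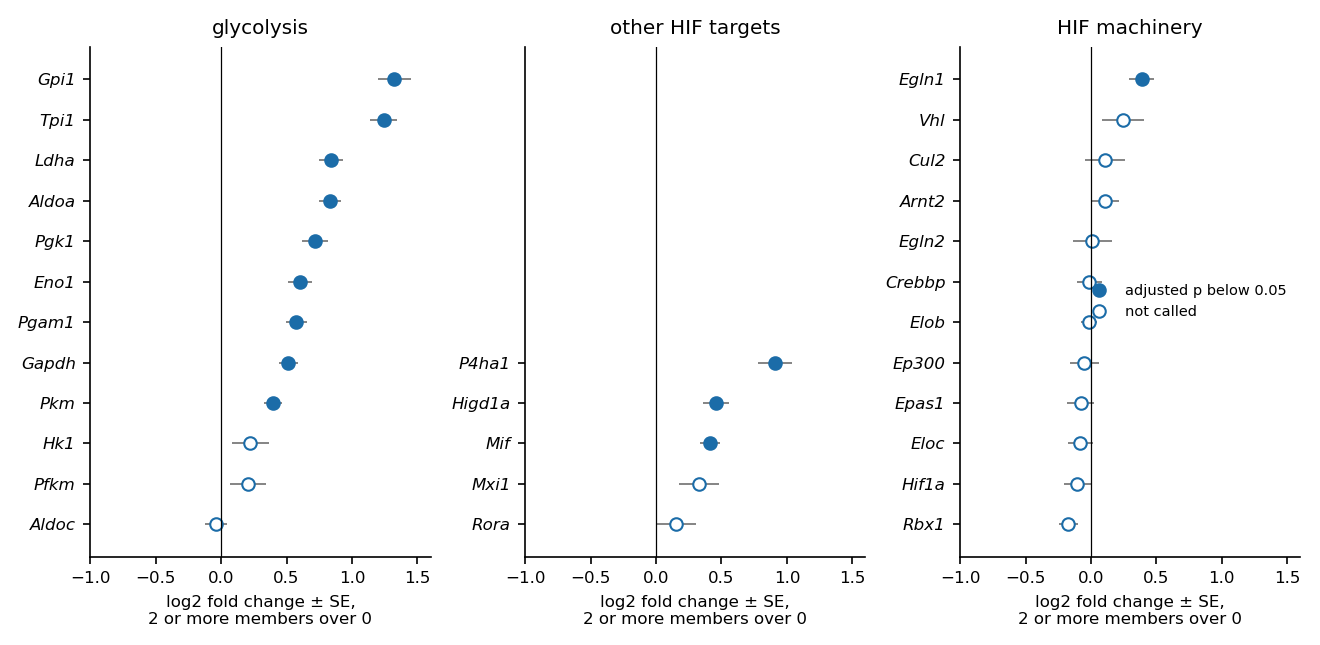
Log2 fold change (± SE) of the tested genes of 3 lists in cells with UMIs of 2 or more of the 8 HIF target genes over cells with 0, within pool and cluster. Of the glycolysis genes 9 of 12 were called higher, from Pkm at 0.39 to Gpi1 at 1.32, and of the HIF machinery 1 of 12.

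Among genes that passed the filter on low counts and had at least 20 CPM, the largest increase outside the 8 genes was that of the metallothionein Mt2. It was at 53.01 against 8.56 CPM in pool 1 (511.3 against 134.0 CPM in pool 2) and rose by 1.68 ± 0.15 (2.40 in pool 1 and 1.70 in pool 2 alone), and its relative Mt1 rose by 1.15 ± 0.11. With no filter on low counts, low genes of the lists rose by more than the 1.61 of Mt2 in that fit, among them the lactate transporter Slc16a3 by 4.09 ± 0.43, the hexokinase Hk2 by 2.51 ± 0.40, and the HIF targets Ankrd37 by 1.97 ± 0.29 and Adm by 1.71 ± 0.18 (edgeR adjusted p of 2.6e-07 or less for each). After these, P4ha1 and the glycolysis genes came Vldlr, a lipoprotein receptor (0.79 ± 0.14), Rhoj, a small GTPase (0.77 ± 0.16), and the stress gene Ier3 (0.76 ± 0.14). Mt1 and Mt2 were the 2 of 6 tested genes of the glucocorticoid list that were called, and Klf9, a glucocorticoid target, changed by 0.23 ± 0.07 without being called (edgeR adjusted p = 0.183). Vldlr was the 1 of 5 called from the integrated stress list; Asns and Atf4 changed by 0.15 ± 0.17 and 0.05 ± 0.11. Cdkn1a, an inhibitor of cell division, was the 1 of 10 called from the p53 list (0.58 ± 0.10), and Ier3, Junb and Fos were the 3 of 11 from the list of immediate early genes. Vldlr rested mainly on pool 2, with 0.23 in pool 1 and 1.23 in pool 2.

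The genes that fell in cells with 2 or more HIF targets were led by Cenpf, a kinetochore protein of dividing cells, at 68.5 CPM in cells with 2 or more, against 361.5 CPM in cells with 0, in pool 1 (110.3 against 227.8 CPM in pool 2). Within clusters Cenpf fell by 0.82 (SE 0.14) on the log2 scale. The non-coding RNA Lockd fell by 0.71 (SE 0.19), Gfod2 by 0.72 (SE 0.19), Rbm28 by 0.44 (SE 0.11) and Mkln1 by 0.41 (SE 0.10).

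Markers of other cell types were followed in the same cells. Summed CPM of the 10 oligodendrocyte precursor markers was 8210 and 6967 in cells with 2 or more HIF targets, against 8278 and 7679 in cells with 0, in pool 1 and pool 2. The 10 oligodendrocyte markers summed to 373.5 and 4497 CPM, against 735.2 and 572.2 CPM, and 11 of the 19 oligodendrocyte-like cells of pool 2 that were deep enough had 2 or more; that cluster did not enter the fit. The 10 astrocyte markers summed to 1028 and 1008 CPM, against 1064 and 1066 CPM. The 10 microglia markers summed to 25.3 and 291.6 CPM, against 112.8 and 147.3 CPM, with 5 markers at 0 in pool 1. Endothelial markers, 5 of 10 listed, summed to 3.26 and 5.91 CPM, against 2.36 and 2.22 CPM. The part of these differences in the result was not tested. Median depth was 11992 and 14234 UMIs in cells with 2 or more, against 10314 and 13270 UMIs in cells with 0, among the cells in the fit. The share of deep enough cells with 2 or more was 12.01% and 22.3% in cluster 4, 12.6% and 14.9% in cluster 7 and 2.75% and 5.99% in cluster 6.

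Over all clusters, dividing cells had less Bnip3, Ddit4, Vegfa and Slc2a1. Cells with training UMIs of at least 2 of 10 core cell cycle genes (508 and 401) were compared with cells with 0 (1404 and 1609). Bnip3 was at 9.804 and 12.4 CPM in the dividing cells of pool 1 and pool 2, against 24.2 and 39.1 CPM in the others. Ddit4 was at 38.1 and 44.4 CPM, against 59.0 and 84.4 CPM, and Vegfa at 29.9 and 26.6 CPM, against 48.8 and 50.7 CPM. Fam162a was at 111.3 and 97.4 CPM, against 121.2 and 118.9 CPM. With the pool alone as the block Bnip3, Ddit4, Vegfa, Slc2a1 and Ndrg1 were called lower, where 14.6% of all genes were called lower. Bnip3 changed by -1.45 ± 0.17, Ddit4 by -0.74 ± 0.10, Vegfa by -0.77 ± 0.11 and Slc2a1 by -0.92 ± 0.28 (edgeR adjusted p of 0.00422 or less). That fit left 1 residual degree of freedom, and Egln3, Fam162a and Pfkp were not called in it. Ndrg1 had 0 UMIs in the dividing cells, and most of its UMIs lay in the oligodendrocyte-like cluster 12. Within clusters none of the 4 genes that passed the filter was called, where 2.1% of 5143 genes were. Ddit4 changed by -0.43 ± 0.17 (edgeR adjusted p = 0.218), Vegfa by -0.51 ± 0.21 (0.263), Fam162a by -0.14 ± 0.12 and Pfkp by 0.10 ± 0.17. The unadjusted p was below 0.05 for 2 of the 4, Ddit4 and Vegfa, and DESeq2 called 0. Clusters themselves divide by cell cycle, so the fit within clusters compares only what remains inside each. The dividing cells were deeper, with medians of 13737 and 17244 UMIs, against 10612.5 and 13139 UMIs.

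As a description, the genes most like the mean of the 8 over 22 sums of cluster and pool were Gpi1 (Pearson r = 0.80), Ndfip1 (0.77), Ero1l (0.72), Lamp2 (0.72), Acadvl (0.71) and Mt1 (0.71), followed by Cdk5, AI413582, Pcid2 and Arpc1a. Likeness was to different genes for each of the 8. Closest to Vegfa were Abca1 (0.84), Trp53inp1 and Tiparp, to Bnip3 were Ndfip1 (0.89), Arpc1a and Cdk5, to Fam162a were Ebna1bp2 (0.95), Prelid1 and Mif, and to Pfkp were Hecw2 (0.88), Maml3 and Lpp. Closest to Slc2a1 were Epb41l4b (0.75), Pak3 and Cttn, to Ddit4 were Ndfip1 (0.81), Maoa and Pdcd10, to Egln3 were Gadd45g (0.78), Wdr70 and Ykt6, and to Ndrg1 were Tulp3 (0.70), Odr4 and Neat1, with few counts of Egln3 and Ndrg1 in these clusters. Sums of 1 library share their depth and tumours. Between Vegfa and Bnip3 r over clusters was 0.05 in pool 1 and 0.77 in pool 2 (11 clusters each), and between Bnip3 and Ddit4 it was 0.58 and 0.85.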

How the data were processed

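The 2 files held, per the labels and the values, raw UMI counts per gene and barcode, deposited by the authors without normalization; Cell Ranger 6.0.2 and the builds GRCm38 and mm10 are named in the submitters' processing notes. The 8 genes, the lists and the tests were chosen with earlier results of these data known. The counts of each cell were split at random (binomial, probability 0.5). Training counts gave clusters (1000 variable genes without the 8 genes and the list genes, 30 principal components, 15 neighbours, Leiden resolution 0.8; Python 3.11.15, scanpy 1.11.5) and cell states after thinning to 2000 UMIs. Held-out counts were summed per pool, cluster and state and tested with edgeR 4.0.16 (quasi-likelihood, TMM, filterByExpr, pool or pool and cluster as block, at least 5 cells of each state per pool; R 4.3.3), with Benjamini-Hochberg adjustment over all genes tested and a threshold of 0.05; DESeq2 1.42.0 was an alternative. The fits were also run on simulated counts drawn independently for each sum. Such counts leave out that sums of 1 pool share tumours, so the p-values were not checked for that. In each list the 4 genes of smallest p were named, and of all genes the 10 largest increases and 5 largest decreases with at least 20 CPM and the same direction in both pools; single values outside this rule (Hk1, Hk2, Slc16a3, Ankrd37, Adm, Aldoc, Pkm, Epas1, Kdr and Flt1) were chosen after they were seen. Doublets were not removed. Scrublet called 0 and 2, where 2.8% and 2.6% of cells were expected, so these calls do not show that doublets were absent. Without the 98 and 86 cells of highest doublet score, 12 of the 14 pairs were kept. The calls of Fam162a in cells sorted by Pfkp and of Vegfa in cells sorted by Slc2a1 were lost. Intervals (95%, exact Poisson) cover counting error only. The pools are 2 libraries of mixed tumours, and p-values measure only the spread between these sums.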

Additional observations from a re-analysis of the deposited data

Results flagged for a closer look

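The barcodes that the cell filter removed, 337 in pool 1 and 372 in pool 2, entered no comparison, and several of the 8 genes were counted in them above the limit of 3 counts that a count of 0 allows. Vegfa was at 81.7 CPM in the removed barcodes of pool 1 and at 39.2 CPM in those of pool 2, from 38 and 17 UMIs. In the kept cells it was at 45.8 and 45.2 CPM. Pfkp was at 62.4 and 66.9 CPM, from 29 UMIs in each pool. Fam162a was at 38.7 and 39.2 CPM, Ddit4 at 25.8 and 48.4 CPM and Bnip3 at 10.8 and 16.1 CPM in the removed barcodes. No barcodes of control samples were there to set these levels against.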

How the results depend on the processing

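The 6 genes called across clusters were 6 or 7 under the alternatives run. Of the pairs of sorting and measured gene, 14 were called higher, with 4 under DESeq2, 6 after thinning to 1000 training UMIs, which leaves fewer sorted cells, and 31 of 56 (and 1 lower) with the pool alone as the block, which takes in all cells. In the fits with the pool alone, between 0.0786% of all genes (sorted by Egln3) and 4.38% (sorted by Ndrg1) were called higher. In cells with 2 or more of the 8 genes, 35 genes were called higher. There were 11 with DESeq2, 23 with another random split, 23 after thinning to 1000, 59 at Leiden resolution 0.4, 64 with no filter on low counts, 210 with the pool alone and 110 for cells with 3 or more of the genes. The 3 other HIF targets called became 1 with DESeq2, 5 with all deposited barcodes, 7 at resolution 0.4, 10 with no filter, 11 with the pool alone and 10 for 3 or more genes. Of the HIF machinery the 1 gene called became 0 with DESeq2. Of the relatives 2 were called, against 0 with DESeq2, 1 at resolution 1.2, 4 with the pool alone and 4 for 3 or more genes. By cycling state 0 genes were called, 5 with the pool alone and 1 with another split (Ddit4). Beyond fewer cells, samples or genes tested, the cause was not tested. For single genes each called value was checked under each alternative in which it could be read. The call was lost in 79 of these checks and kept in 428, with the same direction throughout. Clusters without a close match in another clustering were not checked there. With each value read once in each pool alone, 63 of these readings lay more than 1 SE from the value in both pools and 35 did not, with no change of sign. Values of 1 pool alone, here and above, are ratios of rates or differences of log2 CPM and not edgeR fits. Both pools can therefore lie on the same side of the joint value, and the distance is not only a difference between pools. No test was run on 1 pool alone, so counts of calls without pool 1 or pool 2 are not given. No paired analysis was possible because there is 1 group. Depth limited Slc2a1, Egln3 and Ndrg1, which were too low for most tests.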
